A study of Danio rerio with 4 samples.

Results

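In zebrafish embryos at about 24 hours after fertilization, 48 genes had a lower level in total mRNA of eif3ha morphants than of wild-type embryos. Their level in polysomal mRNA was at least as high in morphants. Levels are relative to the mapped reads of each library, so they do not give amounts of mRNA on polysomes per embryo. They were chosen by these values: at least 3 RPKM (reads scaled by gene model length and by the mapped reads of the library) in 1 or more total and 1 or more polysomal libraries, a morphant level at least 1.5-fold lower than wild type in total mRNA, and a log2 ratio of morphant to wild type at or above 0 in polysomal mRNA. Each ratio was taken after adding 0.5 RPKM to both values. Genes of the hox, mcm, sox, fox and pax families and msgn1, tbx6, cdx4 and dlc were left out by the same rule. The 48 members stand among 7825 genes above 3 RPKM in both fractions and 32313 genes in all. Of the 48 members, 30 carry a gene symbol and 18 have an Ensembl identifier only. Symbols are spelled as in the name table, and where 2 Ensembl identifiers share a symbol the identifier says which is meant.

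An mRNA that is being translated carries several ribosomes and sediments as a polysome, so polysomal mRNA samples what is engaged in translation, and total mRNA samples what is present. The factor eIF3 helps to load the small ribosomal subunit onto mRNA, and eIF3h, encoded by eif3ha, is one of its subunits. Because the fractions sample different pools, a transcript can be scarcer in the embryo and yet hold its place in the polysomal pool. The part of eIF3h in this was not tested.

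The groups were polysomal mRNA of eif3ha morphants, polysomal mRNA of wild-type embryos, total mRNA of eif3ha morphants and total mRNA of wild-type embryos, with 1 library each. A morphant is an embryo injected with an antisense morpholino, here against eif3ha, and the labels name no control morpholino; what injection does and what loss of eIF3h does cannot be told apart. The polysomal fractions came from 300 embryos and the total RNA from 50 whole embryos, all of the same age, and polyA mRNA was sequenced as single reads of 36 bases. With 1 library a group there is no spread within a group, so no test between the groups is possible and no difference below has a replicate check.

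Depth, recovered from the steps between low values, was 22001381 mapped reads in morphant and 15769470 in wild-type polysomal mRNA, and 21021428 in morphant and 24939986 in wild-type total mRNA. Reads behind the values were recovered for all 48 members. The feature named EIF3H (ENSDARG00000036116), which may be eif3ha or its paralogue, stood at 7.60 RPKM in morphant and 6.33 RPKM in wild-type polysomal mRNA, and at 5.92 RPKM in morphant and 6.24 RPKM in wild-type total mRNA. These values do not check the knockdown, since the name does not say which copy this is and the labels do not say how the morpholino acts. Markers of muscle, epidermis, hatching gland, red blood cells and nervous system were present in all 4 libraries, which matches the label of whole embryos. In bulk RNA, fewer cells of a type and less RNA per cell cannot be told apart.

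By a cut at a ratio of 0, few genes lowered in total mRNA held their level on polysomes. Of the 7825 genes, 250 (3.19%) met the threshold in total mRNA, and 3919 (50.1%) had a polysomal ratio at or above 0. Among the 250 genes lowered in total mRNA, 53 (21.2%) had a polysomal ratio at or above 0, or 0.677% of the 7825. After 5 of these were left out by symbol, the 48 members remained, 0.613% of the genes above the floor. Members had a median log2 ratio of -0.70 in total mRNA (range -2.59 to -0.59) and of 0.25 in polysomal mRNA (range 0.00 to 1.24 over 47 members, SNORD14 having 0 wild-type polysomal reads), against medians of -0.01 and 0.00 over all 7825 genes. The rule fixes both directions, so these values describe the members and are no result about them.

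**Figure D1:**
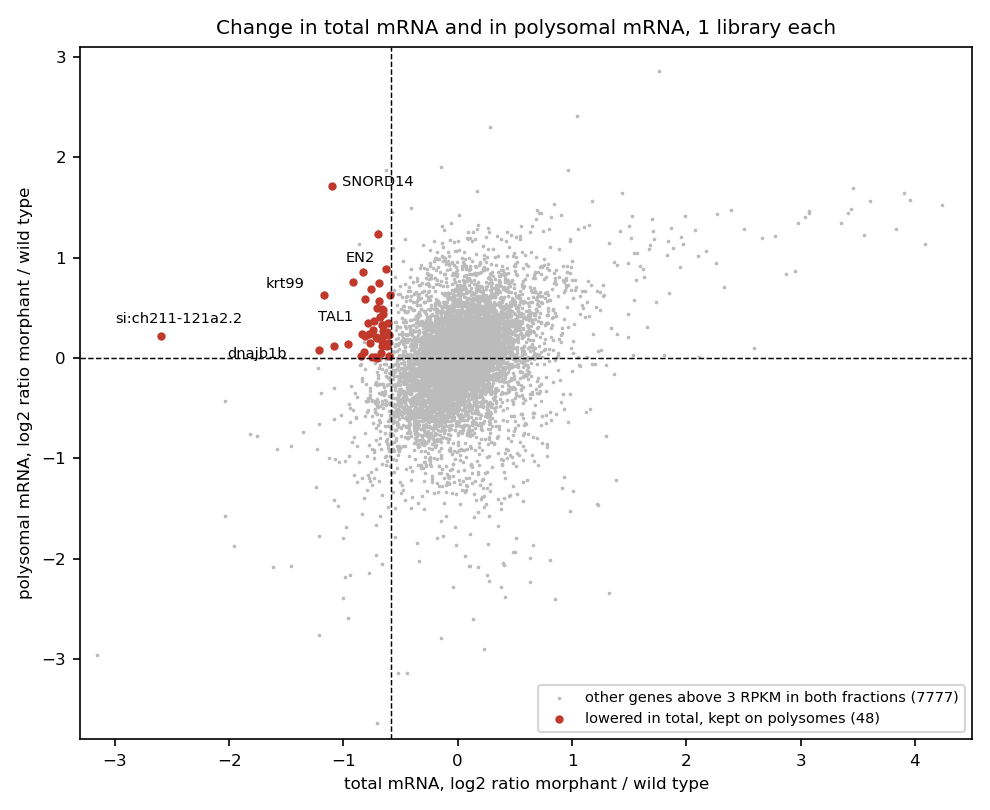
Log2 ratio of morphant to wild type in total mRNA (horizontal axis) against polysomal mRNA (vertical axis), after adding 0.5 RPKM. Each point is a gene; the 48 members in red lie left of the dashed line at the 1.5-fold threshold and at or above 0, and grey points in the same corner are the 5 genes left out by symbol.

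Most members were only moderately lowered. In total mRNA, 5 of the 48 (10.4%) were at least 2-fold lower, where 0.409% of all genes above the floor were. Of the 191 genes lowered in total and below 0 on polysomes, 27 (14.1%) were. SNORD14, among the 5 members, rests on only 2 reads in morphant and 8 in wild-type total mRNA. In polysomal mRNA, 10 members were at least 1.5-fold higher (7.94% of all genes) and 2 were at least 2-fold higher (1.75% of all genes), 1 of them ENSDARG00000089629. Both counts include SNORD14, whose polysomal value in wild type stands on 0 reads. The polysomal ratio minus the total ratio, taken here as the change in polysome association, was at least 2-fold in 26 members (1.7% of all genes), with a median of 1.02. The rule alone makes this change at least 1.5-fold in every member. It also admits no gene with a polysomal ratio below 0, where 50.1% of all genes were at or above 0. A higher share among members than among all genes is therefore built into each of these counts.

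Counting error was small against the lowering in total mRNA for most members, and as large as the polysomal difference for many. The exact binomial 95% interval of the read ratio lay below 0 in total mRNA for 44 of 48 members (31.4% of 7403 genes with recovered reads). In polysomal mRNA it lay above 0 for 25 members (33.7% of those genes). It held 0 for the other 23, so at this depth a polysomal difference was not detectable for those 23. The rule set both directions, while the 7403 genes include those that went the other way, so a higher share among members is built in. Among genes lowered in total and below 0 on polysomes, the total interval lay below 0 for 174 of 180 (96.7%). Their polysomal interval held 0 for 39 of 180 (21.7%), so for these too a polysomal difference was not detectable. These intervals cover counting error only, would be too narrow if a read was counted in more than 1 transcript, and compare these libraries, not the conditions: over all 7403 genes the interval left out 0 for 61.4% in total mRNA and for 65.6% in polysomal mRNA. The 4 members whose total interval reached 0 were SNORD14, SNORD18, ENSDARG00000080685 and ENSDARG00000082928, with 16 to 84 reads each over the 4 libraries. How the libraries are scaled also decides small polysomal ratios. An alternative chosen after seeing the data took the share of the 50 most abundant genes out of the mapped reads. Among members with a symbol, AGA, dnajb1b, hadhaa, dnmt3bb.2, ctc1, MSANTD1 and WNT16 then lay below 0 on polysomes, from -0.10 to -0.03. Members without a symbol were not looked at singly in this check.

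**Figure D2:**
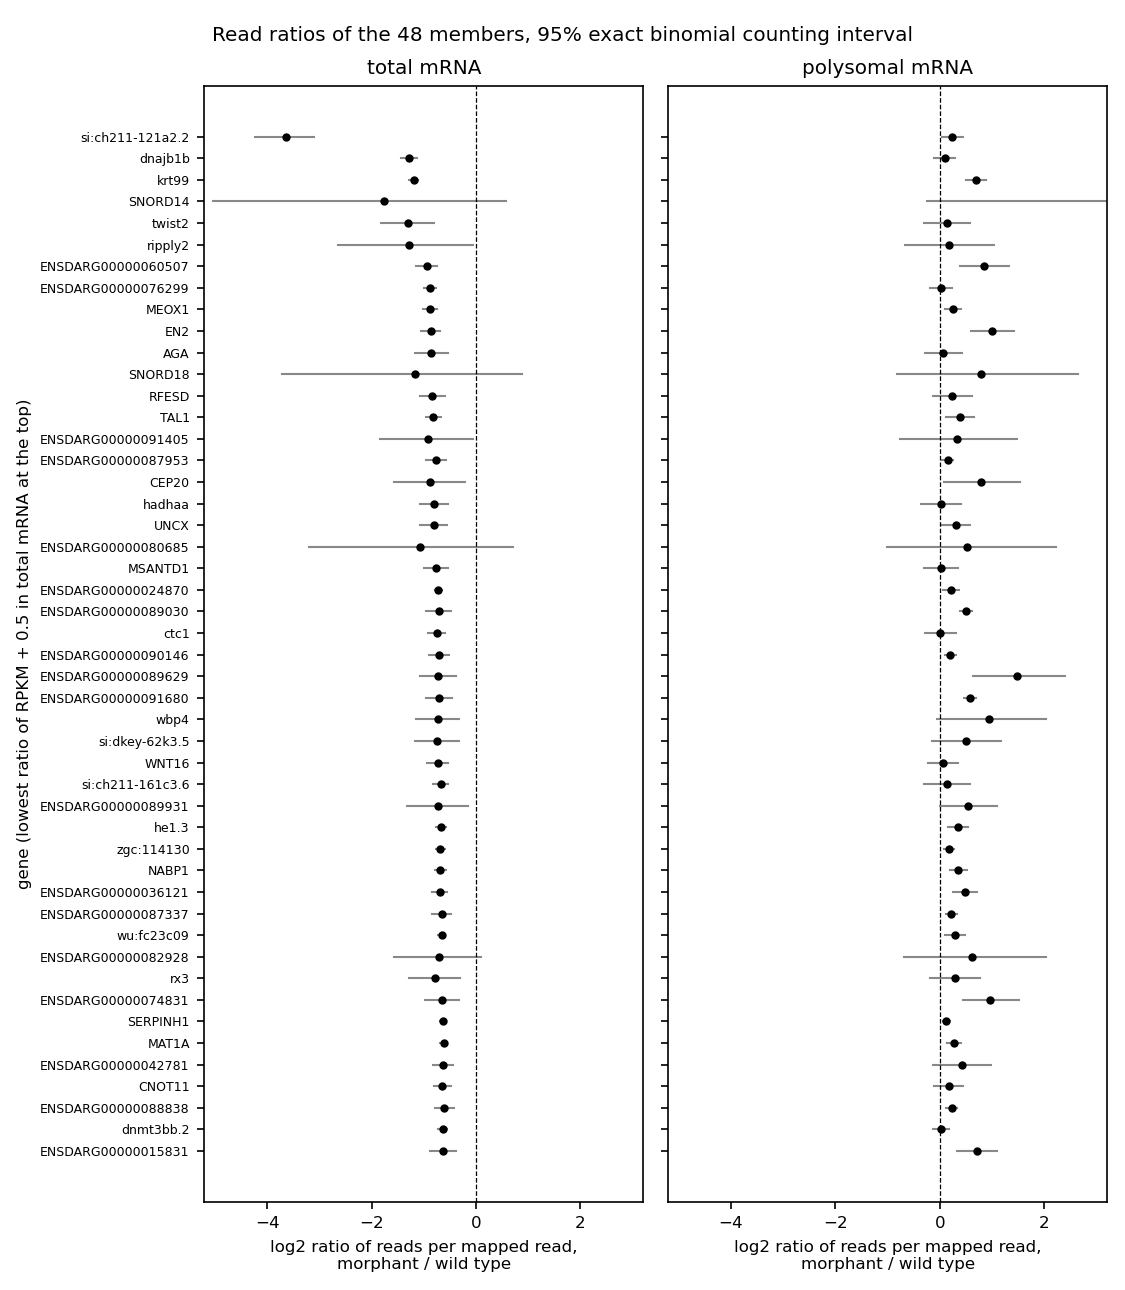
Log2 ratio of reads per mapped read, morphant over wild type, for each of the 48 members in total mRNA (left) and polysomal mRNA (right); lines are exact binomial 95% intervals of counting error. In total mRNA 44 lines lie wholly below 0, and in polysomal mRNA 25 lie wholly above 0; the SNORD14 line runs past the right edge, and SNORD14 has no polysomal point because wild type had 0 reads.

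The member with the lowest total ratio was si:ch211-121a2.2 (ENSDARG00000039682). It had 0.418 RPKM in morphant and 5.03 RPKM in wild-type total mRNA, from 29 and 428 reads. In polysomal mRNA it had 7.67 RPKM in morphants and 6.51 RPKM in wild type, from 576 and 350 reads. Morphant total mRNA thus stood alone at a low level, below the other 3 libraries. The log2 read ratio was -3.64 in total mRNA (interval -4.23 to -3.09) and 0.24 in polysomal mRNA (0.04 to 0.43). The name carries no described function.

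Among the members with a role in development, 4 encode transcriptional regulators of the somites, the blocks of paraxial mesoderm that form muscle, skeleton and dermis. The bHLH factor twist2 (ENSDARG00000078266), a regulator of mesenchyme, had 1.78 RPKM in morphant and 4.35 RPKM in wild-type total mRNA, against 4.19 RPKM in morphant and 3.82 RPKM in wild-type polysomal mRNA. The corepressor ripply2 (ENSDARG00000070535), which acts where a somite boundary forms, had 1.53 RPKM in morphant and 3.45 RPKM in wild-type total mRNA, and 5.54 RPKM in morphant and 5.0 RPKM in wild-type polysomal mRNA. In morphants both were below 3 RPKM in total mRNA and above it on polysomes.

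The somite homeobox gene MEOX1 (ENSDARG00000007891) had 7.90 RPKM in morphant and 14.5 RPKM in wild-type total mRNA, and 9.73 RPKM in morphant and 8.19 RPKM in wild-type polysomal mRNA. The homeobox gene UNCX (ENSDARG00000037760), known from the mouse for patterning the posterior part of each somite, had 4.78 RPKM in morphant and 8.33 RPKM in wild-type total mRNA, and 7.29 RPKM in morphant and 5.93 RPKM in wild-type polysomal mRNA. Total log2 ratios of the 4 genes ran from -1.09 (twist2) to -0.74 (UNCX). In total mRNA ripply2 rests on only 8 reads in morphants and 23 in wild type, with an interval of -2.65 to -0.07. Polysomal intervals lay above 0 for MEOX1 (0.09 to 0.41) and UNCX (0.03 to 0.58) and held 0 for twist2 (-0.30 to 0.58) and ripply2 (-0.66 to 1.03), the last from 33 reads in morphants and 21 in wild type.

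Related genes did not all share this pattern. Among 8 paraxial mesoderm genes above the floor, picked after the members were known, 4 are the members, lowered in total mRNA by the rule. The 4 others also had total ratios below 0, but of these only TCF15 met the total threshold, which 3.19% of all genes met. On polysomes 3 of the 4 others lay below 0. Picked genes below the floor in a fraction are not among the 8. Of these, pcdh8 (total -0.61, polysomal 0.43) met both ratio thresholds. The genes her7 (-0.55 and 1.35) and her1 (-0.49 and 0.87) fell short in total mRNA but lay above 0 on polysomes. Also above 0 on polysomes were ripply1 (-0.05 and 0.36), mespaa (-0.14 and 1.01), mespab (0.16 and 0.29), mespba (-0.15 and 0.34) and TBX18 (-0.34 and 0.07). The remaining genes below the floor, twist1b (-0.02 and -0.33) and MEOX2 (0.10 and -0.05), lay below 0 on polysomes. The polysomal counting intervals of mespab, mespba, TBX18, twist1b and MEOX2 held 0. TCF15 (ENSDARG00000067544), a bHLH factor of the somites, had a total ratio of -1.35 and a polysomal ratio of -0.74. The close relative twist1a had a total ratio of -0.57, just short of the threshold, and a polysomal ratio of -0.65. Of the genes left out by symbol, msgn1 (total -0.87, polysomal 1.14), tbx6 (-0.70 and 1.27) and cdx4 (-0.65 and 0.30), which act in the unsegmented mesoderm and tailbud, otherwise met the rule. The muscle marker list, 6 genes found of 10, summed to 1402 RPKM in morphant and 4830 RPKM in wild-type polysomal mRNA, and to 869 RPKM in morphant and 544 RPKM in wild-type total mRNA; its part in these values was not tested.

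Further members act in patterning of the brain, eye and blood. The EN2 feature ENSDARG00000038868, an engrailed gene of the midbrain-hindbrain boundary, had 9.41 RPKM in morphant and 17.1 RPKM in wild-type total mRNA. On polysomes it had 4.68 RPKM in morphants and 2.36 RPKM in wild type, from 187 and 67 reads, a log2 read ratio of 1.0 (interval 0.59 to 1.43). The other EN2 feature (ENSDARG00000026599) was under 3 RPKM on polysomes and is no member; its ratios were -0.31 in total and 0.69 in polysomal mRNA. The eye-field homeobox gene rx3 (ENSDARG00000052893) had 1.85 RPKM in morphant and 3.18 RPKM in wild-type total mRNA. On polysomes it had 3.25 RPKM in morphants and 2.70 RPKM in wild type, with an interval that held 0 (-0.20 to 0.77). When 1 RPKM was added in place of 0.5 RPKM, 44 of the 48 remained members. With that change rx3, dnmt3bb.2, CNOT11 and a member without a symbol dropped out. The rx3 relative rx1 differed less in total mRNA (-0.26) and stood at 0.41 on polysomes. Another relative, rx2, was below the polysomal floor in both conditions, at a total ratio of -1.42. The neural progenitor list, 7 genes found of 10, summed to 304 RPKM in morphant and 369 RPKM in wild-type polysomal mRNA and to 357 RPKM in morphant and 486 RPKM in wild-type total mRNA; its part was not tested.

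The blood and endothelial progenitor factor TAL1 (ENSDARG00000019930) had 11.2 RPKM in morphant and 19.6 RPKM in wild-type total mRNA, and 5.68 RPKM in morphant and 4.34 RPKM in wild-type polysomal mRNA. Its read ratio on polysomes was 0.39 (interval 0.12 to 0.66). LMO2, a partner of TAL1, had a total ratio of -0.49, short of the threshold, and a polysomal ratio of 0.40. WNT16 (ENSDARG00000094973), a secreted ligand that in zebrafish acts in the somites to specify blood stem cells, had 4.40 RPKM in morphant and 7.31 RPKM in wild-type total mRNA. On polysomes WNT16 had 3.49 RPKM in morphants and 3.35 RPKM in wild type, with an interval that held 0 (-0.22 to 0.35). Both genes were lowered in total mRNA while the erythroid list, 3 genes found of 5, summed to 1181 RPKM in morphant and 858 RPKM in wild-type polysomal mRNA and to 751 RPKM in morphant and 668 RPKM in wild-type total mRNA; its part was not tested.

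**Figure D3:**
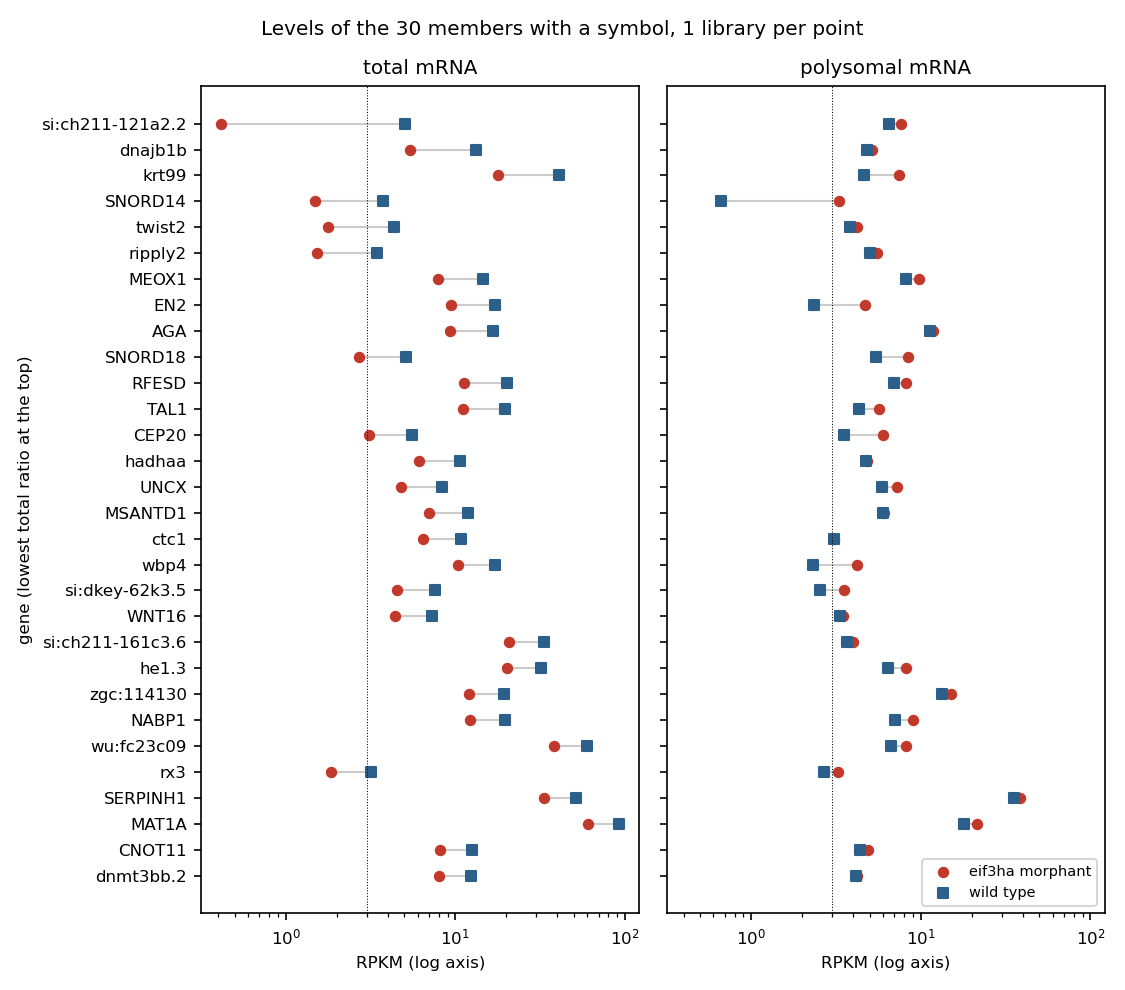
RPKM on a log axis in total mRNA (left) and polysomal mRNA (right) for the 30 members with a symbol, morphant as red circles and wild type as blue squares, 1 library per point; the dotted line is 3 RPKM. In total mRNA each red circle lies left of its blue square, and in polysomal mRNA each red circle lies at or right of it, and the SNORD14 square stands on 0 reads.

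Of proteins that fold other proteins, 2 were members. The cochaperone dnajb1b (ENSDARG00000041394), an Hsp40 that drives the Hsp70 cycle, had 5.43 RPKM in morphant and 13.2 RPKM in wild-type total mRNA, and 5.15 RPKM in morphant and 4.84 RPKM in wild-type polysomal mRNA. The total read ratio was -1.29 (interval -1.44 to -1.14) and the polysomal one 0.09 (-0.11 to 0.29). SERPINH1 (ENSDARG00000019949), the collagen chaperone Hsp47, had 33.5 RPKM in morphant and 51.8 RPKM in wild-type total mRNA, and 38.6 RPKM in morphant and 35.4 RPKM in wild-type polysomal mRNA. A second SERPINH1 feature (ENSDARG00000075954) went the other way in total mRNA, at 0.63, and stood at 0.26 on polysomes. HSP90AA1 (ENSDARG00000024746), lower than dnajb1b in total mRNA at -1.46, was also lower on polysomes at -0.87. Among 89 genes of a list of chaperones and folding factors above the floor, 5 met the total threshold (5.62%, against 3.19% of all genes). Of the list 1 gene, dnajb1b, was a member (1.12%, against 0.613% of all genes), since the list does not hold SERPINH1.

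The keratin krt99 (ENSDARG00000019365), a filament protein of the skin, had 17.9 RPKM in morphant and 40.9 RPKM in wild-type total mRNA, and 7.40 RPKM in morphant and 4.60 RPKM in wild-type polysomal mRNA. It rests on many reads, 1761 in morphant and 4784 in wild-type total mRNA and 762 in morphant and 339 in wild-type polysomal mRNA, with a polysomal read ratio of 0.69 (interval 0.50 to 0.88). Other keratins were picked after the members were known and are not a full set. Of the 10 picked above the floor, 9 had a polysomal ratio below 0. Only krt1-19d among the 10 also met the total threshold (-1.82, with -0.76 on polysomes). The epidermal marker list, 8 genes found of 9, summed to 4058 RPKM in morphant and 4516 RPKM in wild-type polysomal mRNA and to 6152 RPKM in morphant and 4392 RPKM in wild-type total mRNA. The median log2 ratio over these 8 genes was -0.04 on polysomes and 0.33 in total mRNA, so krt99 stood opposite to them in total mRNA; their part was not tested.

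The hatching enzyme he1.3 (ENSDARG00000022670), a protease that dissolves the egg envelope, had 20.1 RPKM in morphant and 32.0 RPKM in wild-type total mRNA, and 8.20 RPKM in morphant and 6.45 RPKM in wild-type polysomal mRNA. Its copies he1.1 and he1.2 were higher in morphants in both fractions, at 0.98 and 1.15 in total mRNA and 1.18 and 1.32 on polysomes. These enzymes belong to 1 family, and reads from like copies may have been assigned to the wrong one. The hatching gland markers, all 4 found, summed to 192 RPKM in morphant and 120 RPKM in wild-type polysomal mRNA and to 357 RPKM in morphant and 237 RPKM in wild-type total mRNA; their part was not tested.

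**Figure D4:**
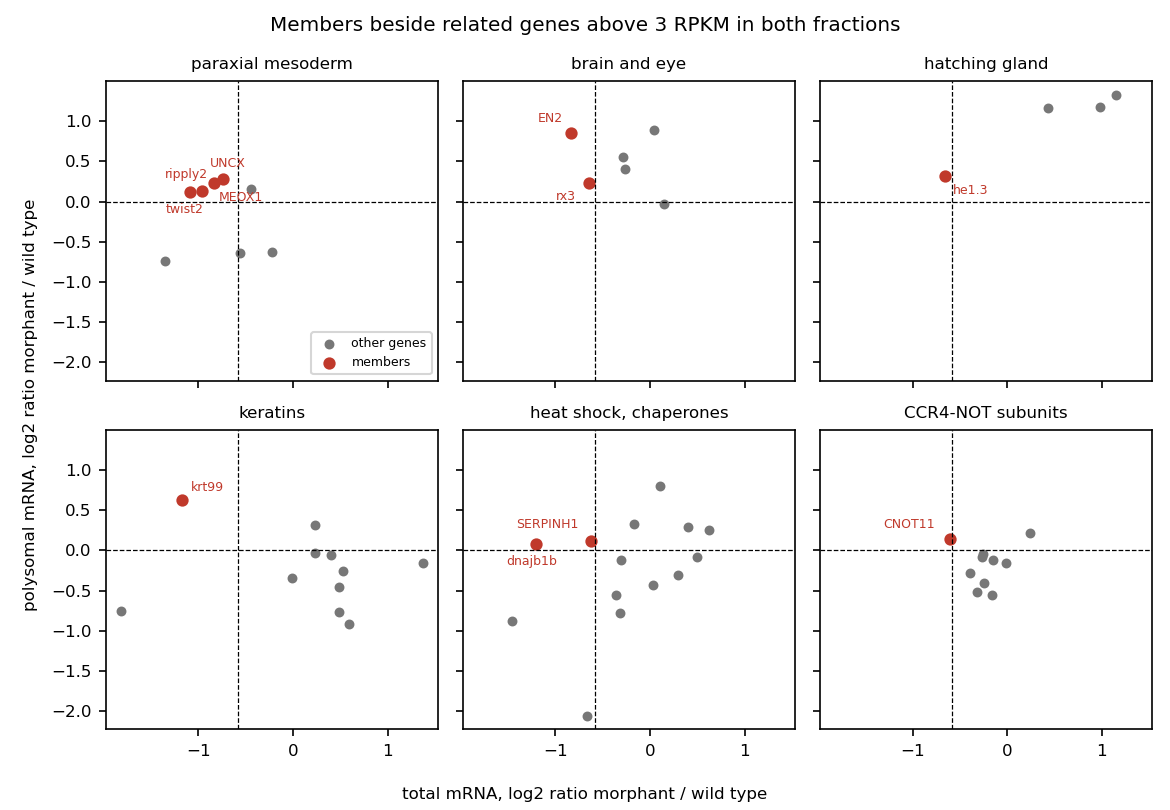
Log2 ratio of morphant to wild type in total mRNA (horizontal) and polysomal mRNA (vertical) for members (red) and for related genes above 3 RPKM in both fractions (grey), in 6 groups picked after the members were known. Red points lie left of the dashed line at the 1.5-fold threshold and above 0; the 9 other CCR4-NOT subunits have total ratios from -0.39 to 0.25.

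Members with a metabolic role or domain were MAT1A, hadhaa, AGA and RFESD, grouped after they were known. A list of metabolic enzymes and carriers holds none of them: of its 320 genes above the floor, 7 met the total threshold (2.19%, against 3.19% of all genes) and 0 were members. MAT1A (ENSDARG00000039605), which makes the methyl donor S-adenosylmethionine, was the most abundant member with a symbol in total mRNA, at 60.2 RPKM in morphants and 92.6 RPKM in wild type, and had 21.5 RPKM in morphant and 17.96 RPKM in wild-type polysomal mRNA. Of the related synthetases, mat2al was higher in morphants in total mRNA (1.52) and on polysomes (1.41), and the MAT2A feature ENSDARG00000040334 stood at -0.31 and 0.33. The gene hadhaa (ENSDARG00000057128), a subunit of the mitochondrial trifunctional protein of fatty acid oxidation, had 6.09 RPKM in morphant and 10.6 RPKM in wild-type total mRNA, and 4.84 RPKM in morphant and 4.79 RPKM in wild-type polysomal mRNA. The lysosomal enzyme gene AGA (ENSDARG00000004889) had 9.26 RPKM in morphant and 16.7 RPKM in wild-type total mRNA, and 11.8 RPKM in morphant and 11.4 RPKM in wild-type polysomal mRNA. RFESD (ENSDARG00000058725), named for a Rieske iron-sulphur domain, had total and polysomal ratios of -0.81 and 0.22. For hadhaa, AGA and RFESD the polysomal interval held 0.

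Members that act on DNA, RNA and the centrosome were dnmt3bb.2, NABP1, ctc1, CNOT11, wbp4 and CEP20. The de novo DNA methyltransferase dnmt3bb.2 (ENSDARG00000057830) had 7.98 RPKM in morphant and 12.4 RPKM in wild-type total mRNA, and 4.19 RPKM in morphant and 4.13 RPKM in wild-type polysomal mRNA. NABP1 (ENSDARG00000004692), which binds single-stranded DNA, had 12.2 RPKM in morphant and 19.5 RPKM in wild-type total mRNA, and 8.95 RPKM in morphant and 7.02 RPKM in wild-type polysomal mRNA, with a polysomal interval of 0.19 to 0.52. Its partner INTS3 was near 0 in total mRNA (-0.14) and at -0.29 on polysomes. The telomere factor ctc1 (ENSDARG00000070119) had almost equal polysomal values, 3.09 RPKM in morphants and 3.08 RPKM in wild type, and a total ratio of -0.70, while STN1, which acts in the same complex, stood at -0.04 in total mRNA and -0.05 on polysomes.

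CNOT11 (ENSDARG00000068596), a subunit of the CCR4-NOT complex that shortens polyA tails, had 8.09 RPKM in morphant and 12.6 RPKM in wild-type total mRNA, and 4.88 RPKM in morphant and 4.36 RPKM in wild-type polysomal mRNA. The 9 other features of this complex above the floor, picked after the members were known, had total ratios from -0.39 to 0.25. The spliceosome-associated gene wbp4 (ENSDARG00000068082) had 10.4 RPKM in morphant and 17.1 RPKM in wild-type total mRNA, and 4.20 RPKM in morphant and 2.31 RPKM in wild-type polysomal mRNA. Its polysomal values rest on 32 and 12 reads, with an interval of -0.06 to 2.03. CEP20 (ENSDARG00000071198), a centrosomal protein needed for cilia, had 3.09 RPKM in morphant and 5.56 RPKM in wild-type total mRNA, and 6.0 RPKM in morphant and 3.55 RPKM in wild-type polysomal mRNA, from 58 and 24 polysomal reads. Of 166 genes of a list of splicing and RNA-binding proteins above the floor, 5 met the total threshold (3.01%, against 3.19% of all genes). Of these 166 genes 0 were members, against 0.613% of all genes.

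Other lists showed how few members a group of genes gave. Over all genes above the floor 3.19% met the total threshold. Of 105 neural transcription factors above the floor, 16 met it (15.2%) and 2 (EN2 and rx3) were members. Of 104 genes of the Notch, Wnt, Fgf, Bmp, Hedgehog and retinoid pathways, 7 met it (6.73%) and 1 (WNT16) was a member, and of 104 chromatin genes 6 met it (5.77%) and 1 (dnmt3bb.2) was a member. Lists of 141 replication and cell cycle genes, 229 translation and ribosome biogenesis genes and 60 muscle genes held 9 (6.38%), 2 (0.873%) and 2 (3.33%) genes past the total threshold and 0 members. Genes left out by symbol were not taken out of the lists or of the counts past the total threshold, but could not be members. Member counts are therefore held down in advance for any list with such genes. Against the share of 0.613% over all genes above the floor, each list gave 0 to 2 members, and nothing particular to a list is read from such counts.

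Several members have short gene models. The length implied by the steps between values was under 200 bases for 10 of 48 members (20.8%), against 20 of 180 (11.1%) of the genes lowered in total and below 0 on polysomes, and 179 of 7403 genes above the floor with recovered reads (2.42%). The median implied length was 1356 bases over the members and 2504 bases over the 7403 genes. SNORD14 (ENSDARG00000082008) and SNORD18 (ENSDARG00000082911), box C/D small nucleolar RNAs that guide methylation of ribosomal RNA, were 2 of the 10. SNORD14 had 6 reads in morphant and 0 in wild-type polysomal mRNA, and 2 in morphant and 8 in wild-type total mRNA, 16 in all. Its log2 read ratio in total mRNA was -1.75 with an interval of -5.03 to 0.57. On polysomes its interval began at -0.24 and had no upper end, so it held 0 and no difference was detectable. With a chosen floor of 3 reads in place of the 0 wild-type reads, the morphant level was 1.43-fold higher. With that value for SNORD14 the median polysomal ratio of the members is 0.25. The deposited values behave as if 1 read had been added to each gene, which is why a gene with 0 reads is not at 0 RPKM. Another SNORD18 feature, ENSDARG00000082511, stood at 0.23 in total mRNA and -1.48 on polysomes.

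Of the 10 short members, 6 were abundant and belonged to 2 sets of near-equal features without a symbol, taken as features of 1 length with 100 to 2000 RPKM in wild-type polysomal mRNA; 1 more feature of the first length lay above that. In the first set, 9 features of 81 bases each had 1032 to 1140 RPKM in morphant and 934 to 980 RPKM in wild-type polysomal mRNA, and 204 to 248 RPKM in morphant and 310 to 350 RPKM in wild-type total mRNA. Their total ratios ran from -0.76 to -0.41, and the 4 members are those past the threshold, among them ENSDARG00000087953. In all 4 libraries 13 features lay within 0.3 log2 of ENSDARG00000087953, and 3 of these 13 are members. Some of the 13 lie outside the set and were less lowered in total mRNA, such as ENSDARG00000087504 (-0.20) and ENSDARG00000087970 (-0.28). In the second set, 11 features of 154 bases had 511 to 560 RPKM in morphant and 348 to 380 RPKM in wild-type polysomal mRNA, and 63.9 to 84.0 RPKM in morphant and 96.3 to 115 RPKM in wild-type total mRNA. Their total ratios ran from -0.71 to -0.26, and 2 are members. All 9 and all 11 features were lower in morphant total and higher in morphant polysomal mRNA, whether or not they passed the threshold. Features this alike may share reads, and the 6 members were not treated as separate genes in the alternative that counted each set once. The share of short gene models given above, 10 of 48, and the median length do count these 6 as separate genes.

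Without these, the abundant members without a symbol were few. ENSDARG00000024870 had 81.9 RPKM in morphant and 135 RPKM in wild-type total mRNA, and 24.2 RPKM in morphant and 20.9 RPKM in wild-type polysomal mRNA. ENSDARG00000060507 had 15.4 RPKM in morphant and 29.6 RPKM in wild-type total mRNA, and 6.86 RPKM in morphant and 3.86 RPKM in wild-type polysomal mRNA. ENSDARG00000089629 had the highest polysomal ratio of the members with wild-type polysomal reads, at 1.24, with 58 reads in morphants and 15 in wild type. Among named members of unknown function, wu:fc23c09 had 38.1 RPKM in morphant and 60.0 RPKM in wild-type total mRNA, si:ch211-161c3.6 had 20.8 RPKM in morphant and 33.3 RPKM in wild-type total mRNA, and zgc:114130 had 12.1 RPKM in morphant and 19.4 RPKM in wild-type total mRNA. The remaining named members, MSANTD1 and si:dkey-62k3.5, had total ratios of -0.72 and -0.68 and polysomal ratios of 0.01 and 0.41.

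In wild type the members were less represented on polysomes than in total mRNA, and in morphants they were near the level of all genes. Their median log2 ratio of polysomal to total mRNA was -0.18 in morphants and -1.37 in wild type, against -0.22 in morphants and -0.20 in wild type over all 7825 genes. The polysomal value lay below the total value for 27 members in morphants (60.3% of all genes) and for 38 members in wild type (57.9% of all genes). It was at least 2-fold below for 10 members in morphants (20.8%, against 18.7% of all genes) and for 27 in wild type (56.2%, against 21.2% of all genes), among them krt99 and EN2 in wild type, at -3.02 and -2.62. All features of both short sets were the other way, higher on polysomes than in total mRNA in both conditions. These ratios use the same 4 libraries as the rule, which selects for such a shift: the 98 genes raised in morphant total mRNA but not on polysomes showed the opposite one, with medians of 0.09 in morphants and 1.35 in wild type.

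**Figure D5:**
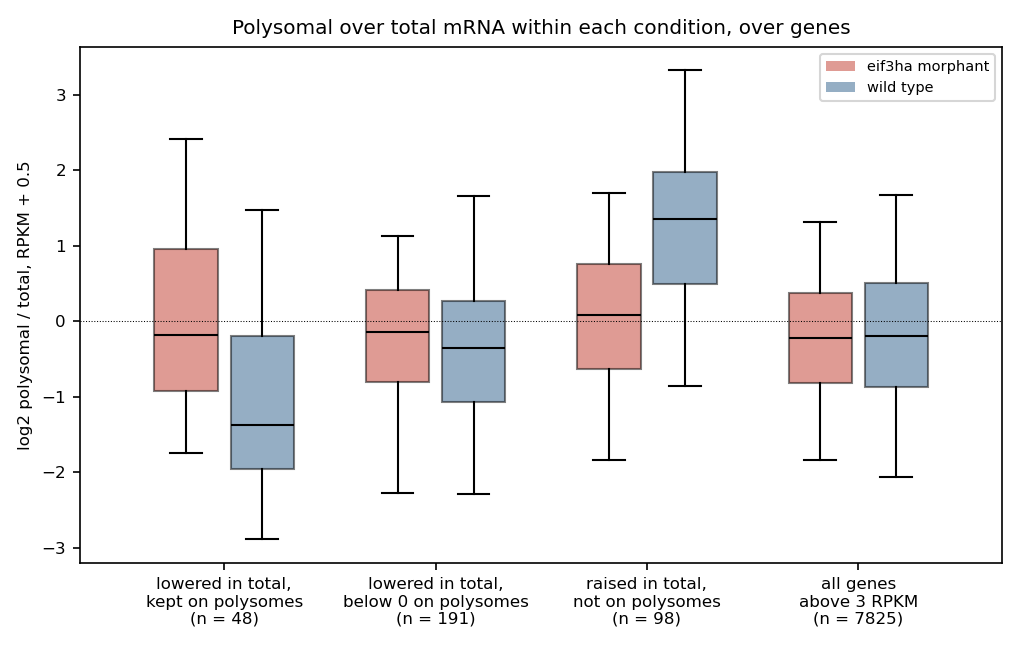
Log2 ratio of polysomal to total mRNA (RPKM + 0.5) within morphants (red) and wild type (blue) over the genes of 4 sets; boxes are quartiles, the line is the median and whiskers are the 5th and 95th percentiles over genes. Members have medians of -0.18 in morphants and -1.37 in wild type, and all genes -0.22 in morphants and -0.20 in wild type.

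Against the 191 genes that met the total threshold but lay below 0 on polysomes, the members had nearly the same median lowering and a lower median level on polysomes in wild type; the polysomal ratio defines both sets. The median total ratio was -0.70 over the members and -0.71 over the 191 genes. The median level in total mRNA was 8.86 RPKM in morphants and 16.2 RPKM in wild type over the members, and 10.4 RPKM in morphants and 19.6 RPKM in wild type over the 191 genes. On polysomes the members had medians of 6.39 RPKM in morphants and 4.82 RPKM in wild type, and the 191 genes 7.12 RPKM in morphants and 11.8 RPKM in wild type. A member had to reach 3 RPKM in either polysomal library: 8 of the 48 did so in morphants alone. None of the 191 genes could, since their wild-type value is the higher one by definition.

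The thresholds divide genes with close values. Just inside the total threshold were dnmt3bb.2 (-0.60) and CNOT11 (-0.61), and just outside it were SH3BP5L (-0.58) and DLL1 (-0.58), both with polysomal ratios above 0. Just inside the polysomal threshold were ctc1 (0.00) and hadhaa (0.01), and just outside it were FZD8, at 15.47 RPKM in morphants and 15.52 RPKM in wild type, and TTC5 (-0.01).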

How the data were processed

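RPKM per gene was deposited for 4 libraries, 1 each of polysomal and total mRNA from eif3ha morphants and wild-type embryos. The genome build was Zv9, per the submitters' processing notes; aligner, counter and annotation are each not given in the sources used here. Deposited RPKM values were used without rescaling, and log2 ratios were taken after adding 0.5 RPKM. Of 32313 genes, 20499 have a symbol in the gene name table. Whole reads were recovered from the steps between RPKM values. The method was tested only on values simulated in the form it assumes, with 1 read added and with the recovered depths. Such a test cannot check the added read, the depths or how reads were counted. Read ratios carry exact Clopper-Pearson 95% intervals, which cover counting error only. With 1 library a group no test was made. The members and lists were chosen with earlier results of these data known, and the groups of related genes after the members were known. Genes named were members with a symbol that were lowest in total ratio, highest in polysomal ratio or most abundant, up to 4 per list, and those next to each threshold; the remaining members were named after their values were seen, to account for all with a symbol. Alternatives were other scalings, pseudocounts, floors and thresholds. Sequences were not used here. Intervals came from SciPy 1.17.1 and plots from Matplotlib 3.10.9, with tables handled in pandas 2.3.3 and NumPy 2.4.6 under Python 3.11.15.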

Additional observations from a re-analysis of the deposited data

How the results depend on the processing

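The number of members was 48, and 40 to 63 under other scalings, pseudocounts of 0.1 and 1, a counting interval in total mRNA, copies counted once or at least 50 reads. It was 284 with no floor, 10 with a floor of 12 RPKM, 5 with a 2-fold total threshold and 10 with a polysomal level at least 1.5-fold higher, each of which admits more or fewer genes by construction. When the 50 most abundant genes were kept out of the library totals, 44 of the 48 remained. Over all 48 members, kept or not, the median polysomal ratio was 0.47, the association 1.21 and the wild-type polysomal-to-total ratio -1.78. Over all genes these medians moved to 0.22, 0.18 and -0.62. With the share of the 50 most abundant genes taken out of the mapped reads, chosen after seeing the data, 38 remained. The medians, again over all 48, were 0.14 for the polysomal ratio and 0.91 for the association. The median morphant polysomal-to-total ratio of the 48 turned to 0.11. Over all genes the polysomal median moved to -0.11 and the association to -0.13. The morphant polysomal-to-total median of all genes also turned, to 0.07. Among members with a symbol, the polysomal ratio under this scaling turned to -0.0606 for AGA, -0.0308 for dnajb1b, -0.0970 for hadhaa and -0.0907 for dnmt3bb.2. It also turned to -0.101 for ctc1, -0.0985 for MSANTD1 and -0.0522 for WNT16. Over the 284 genes chosen with no floor, the median polysomal-to-total ratio was -0.88 in morphants and -1.95 in wild type. With the floor of 12 RPKM the association was 0.89, and that ratio turned to 2.28 in morphants and 1.42 in wild type, where 6 of the 10 genes are the short copies. No paired analysis was possible because each group has 1 library. Of the members, 35 (72.9%) were under 10 RPKM in both polysomal libraries, against 45.6% of all genes, and 23 had a polysomal counting interval that held 0. Beyond these constructions the cause was not tested.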
